A study of Homo sapiens with 114 samples.

Results

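Untreated HK-2 cultures that served as the controls of the Fk and Ra experiment were compared between 48 and 12 h. HK-2 is an immortalized line of human renal proximal tubular epithelial cells, grown here in a defined medium with 5 mM glucose, EGF at 10 ng/ml and hydrocortisone at 36 ng/ml, with no serum named. The 6 arrays, 3 per time, were chosen by the labels as all untreated arrays of this experiment with 12 or 48 h of exposure, out of 38 groups of 3 arrays in the series, and no measured value entered the choice. Per the labels' protocols, cells had been seeded 24 h before exposure and were exposed at about 90% confluency, so the times correspond to 36 and 72 h after seeding and lie 36 h apart. Both groups received vehicle only, and all groups shared the medium, which also held insulin, transferrin and selenite. The vehicle is not named in the labels, the source field names these cultures as controls for Fk alone while the titles name Fk and Ra, and the replicates are labelled biological. The other arms of the same experiment were Fk and Ra, each at 12 and 48 h with 3 arrays per time, and the other untreated cultures at 12 and 48 h were the controls of CdCl with Di and of CsA, 3 arrays per time each.

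Some of the genes described below belong to well known programmes. When amino acids are scarce or proteins misfold in the endoplasmic reticulum (ER), kinases that phosphorylate the initiation factor eIF2 slow protein synthesis while favouring translation of ATF4, a transcription factor that induces amino acid transporters, amino acid and one-carbon enzymes and the stress factors DDIT3 and ATF3. The ER itself signals through the sensor IRE1, encoded by ERN1, which splices the mRNA of XBP1, and through ATF6, and both induce chaperones. Proximal tubule cells in culture divide until the layer is dense and then leave the cell cycle, with loss of the mRNAs for replication and mitosis. Whether the cells of this immortalized line did so here was not tested.

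Expression was measured on Affymetrix arrays and is given as log2 values, in which values below about 4 are background. The epithelial identity of the cultures was borne out by the markers: KRT8, KRT18, KRT19, CDH1 and EPCAM lay above 4 on all 6 arrays, and KRT18 was between 12.5 and 13.2. Of 12 proximal tubule markers in the table only PAX8 and DPP4 lay above 4 on all 6 arrays, at 10.8 to 11.4 and 10.8 to 11.8, and 8 lay below 4 on all of them, among them LRP2, CUBN, AQP1 and SLC34A1. None of the markers of the distal tubule and collecting duct (5 in the table), endothelium (4) or leukocytes (3) was above 4 on all 6 arrays. Of 6 fibroblast markers 3 were: COL1A1 at 7.93 to 8.36, DCN at up to 9.61 and LUM at 8.04 to 9.89. Of 3 podocyte markers PODXL was above 4 on all 6. Of all these markers 1 was called, KRT8, at −0.57 ± 0.181, and it was not called without any of the 6 arrays (−0.66 to −0.42).

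The difference between the ACTB probe sets at the 3' and 5' ends, a sign of RNA quality, was 0.97 to 1.16 at 12 h and 1.15 to 1.42 at 48 h, and its part in the results below was not tested. On the 48 h array of replicate 3 the profile lay nearer to the 12 h cultures than on replicates 1 and 2: its correlation with the 12 h mean was 0.969, against 0.932 and 0.950, and it was the 48 h array nearest to 12 h for 70.3% of the genes called. An array of the Ra arm at 48 h, replicate 2, stood apart in its value distribution, with an upper quartile of 6.09 against 6.73 to 7.02 on the other 17 arrays of the experiment. It enters the comparison only through the estimate of the spread, and without it 2884 genes were called in place of 1740.

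A total of 10889 genes were tested with limma, and 1740 of them (16.0%) were called, meaning an adjusted p under 0.05, with 849 higher (7.80%) and 891 lower (8.18%) at 48 h. Of the calls 1021 were at least 2-fold, 545 higher and 476 lower, and the median change of all genes was 0.015. The 3 arrays of each time did not overlap for 5294 genes (48.6%), which included 1729 of the genes called. Leaving out the 48 h array of replicate 3 gave 2024 calls, and leaving out that of replicate 1 or 2 gave 613 or 719. Without the 12 h array of replicate 1, 2 or 3 there were 951, 859 or 708.

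**Figure D1:**
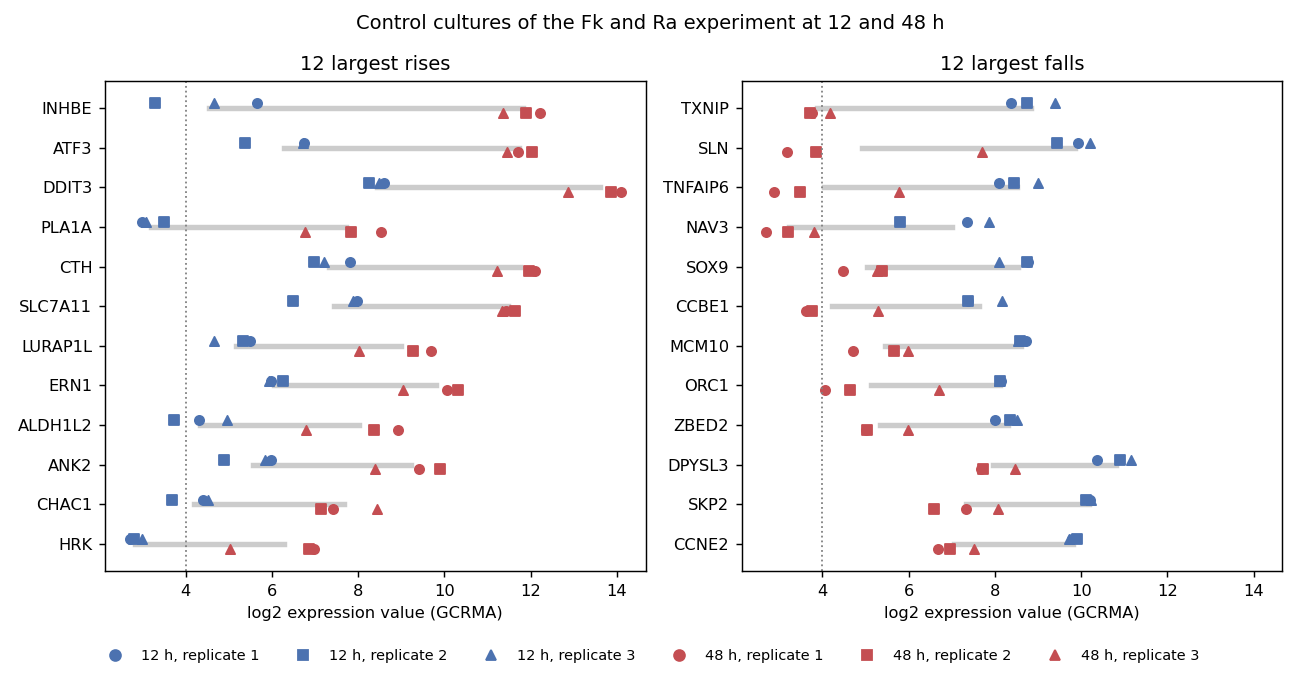
Log2 expression values (x axis) of the 12 genes with the largest called rise (left) and the 12 with the largest called fall (right), with each of the 3 arrays at 12 h (blue) and at 48 h (red) as a point, the marker giving the replicate and the grey bar joining the means. INHBE moved from between 3.29 and 5.67 to between 11.4 and 12.2, and TXNIP from between 8.37 and 9.39 to between 3.71 and 4.18. The 24 genes were chosen among the called genes whose blue and red points do not overlap. The dotted line is the log2 level of 4 at which genes entered the test.

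The largest rise was that of INHBE, which encodes the activin subunit inhibin beta E, a secreted factor. It measured 5.67, 3.29 and 4.66 on the 12 h arrays and 12.2, 11.9 and 11.4 on the 48 h arrays, a change of 7.29 ± 1.24 (standard error; adjusted p = 0.0029). The 12 h arrays thus ran from background to a low level, while all 3 arrays at 48 h were high. DDIT3, the stress transcription factor also known as CHOP, measured 8.61, 8.25 and 8.49 at 12 h and 14.1, 13.9 and 12.9 at 48 h. Its rise of 5.16 ± 0.802 corresponds to 35.8-fold (adjusted p = 0.00176), and at 48 h its level was lowest on replicate 3. ATF3, a transcription factor of the same response, measured 6.74, 5.37 and 6.73 at 12 h and 11.7, 12.0 and 11.5 at 48 h, a rise of 5.45 ± 0.871 or 43.7-fold (adjusted p = 0.00209).

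The amino acid response list, made of known targets of ATF4 and of ATF4 itself, was the one with the highest share of calls. Of its 27 members tested 23 rose and none fell, a share of 85.2% against 16.0% of all genes, and the list's median change was 1.68 against 0.015 for all genes. All 27 members, including the 4 not called, were higher on each of the 3 arrays at 48 h than on any array at 12 h. Of all genes, 48.6% had no overlap between the times, in either direction. ATF4 itself measured 12.3, 11.7 and 12.3 at 12 h and 13.3, 13.3 and 13.3 at 48 h, a rise of 1.16 ± 0.277 (adjusted p = 0.0129), which was not called without the 12 h array of replicate 2 (0.96). The count of rises was 13 without the 12 h array of replicate 2 and 15 without the 48 h array of replicate 1, and between 17 and 22 without any other. Whichever array was left out, 13 members kept their call: ATF3, DDIT3, CTH, SLC7A11, SLC3A2, ALDH1L2, ASNS, STC2, NUPR1, GDF15, TRIB3, PSPH and MTHFD2.

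Among the list's amino acid transporters, SLC7A11, the light chain of the cystine and glutamate exchanger, rose by 4.02 ± 0.783 from 7.97, 6.49 and 7.88 to 11.4, 11.6 and 11.3 (adjusted p = 0.00506). Its partner SLC3A2, the shared heavy chain, rose by 2.71 ± 0.526, SLC7A5, which imports large neutral amino acids with it, by 1.68 ± 0.536, the cationic transporter SLC7A1 by 1.01 ± 0.275 and the neutral transporter SLC38A2 by 0.73 ± 0.214. SLC7A5 was called in none of the fits that leave out an array (1.41 to 1.83), SLC38A2 only in that without the 48 h array of replicate 3 (0.64 to 0.78) and SLC7A1 only without the 48 h array of replicate 3 or the 12 h array of replicate 1 (0.88 to 1.15). Cystine enters cells through the first pair of these proteins, and CTH makes cysteine within the cell from cystathionine. CTH measured 7.82, 6.97 and 7.21 at 12 h and 12.1, 12.0 and 11.2 at 48 h, a rise of 4.43 ± 0.943 (adjusted p = 0.00752).

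Enzymes of amino acid and one-carbon metabolism were higher as well. ASNS, the asparagine synthetase, measured 9.40, 8.26 and 9.55 at 12 h and 12.4, 12.6 and 11.7 at 48 h, a rise of 3.18 ± 0.602 or 9.09-fold. ALDH1L2, a mitochondrial folate dehydrogenase, rose by 3.70 ± 0.574 from 4.32, 3.72 and 4.96 to 8.92, 8.37 and 6.80 (adjusted p = 0.00176). The serine synthesis enzymes PHGDH and PSPH rose by 1.28 ± 0.291 and 1.47 ± 0.34, and the mitochondrial enzymes SHMT2 and MTHFD2 by 1.35 ± 0.326 and 1.24 ± 0.282, while PSAT1, the remaining step of serine synthesis, was not called at 0.61 ± 0.259. Serine synthesis and these mitochondrial enzymes supply one-carbon units for nucleotides. PHGDH was not called without the 48 h array of replicate 1 or the 12 h array of replicate 2, and SHMT2 without these or the 48 h array of replicate 2 (lowest values 1.09 and 1.19).

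The regulators of the list moved in the same direction. TRIB3, a pseudokinase that acts on ATF4, rose by 1.98 ± 0.312, CEBPB and CEBPG, dimer partners of ATF4, by 1.61 ± 0.385 and 1.42 ± 0.431, and NUPR1, a stress-induced chromatin protein, by 2.77 ± 0.554 from background. GDF15, a secreted stress factor, rose by 2.45 ± 0.411, STC2, a secreted glycoprotein, by 3.17 ± 0.588 and SESN2, an inhibitor of mTORC1, by 2.25 ± 0.554. CHAC1, which breaks down glutathione, measured 4.40, 3.70 and 4.52 at 12 h and 7.42, 7.15 and 8.44 at 48 h, a rise of 3.46 ± 0.861 (adjusted p = 0.0148). At 48 h CHAC1 was highest on replicate 3. It was not called without the 12 h array of replicate 2 (3.21). SESN2 was not called without the 48 h array of replicate 1 (2.22) or the 12 h array of replicate 2 or 3 (2.18 and 2.25), CEBPB without the 48 h array of replicate 1 or 2 or the 12 h array of replicate 2 (lowest 1.46), and CEBPG without any array other than the 48 h array of replicate 3 (1.23 to 1.78 over the 6).

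Sequence upstream of 3 of these genes is shown because they hold, before the gene's start, the core of the amino acid response element that ATF4 binds, searched as TGATGNAA on both strands. The RefSeq promoter table for GRCh38.p14, which spans the start of each gene, held 22 of the 27 members, and 5 of them (22.7%) contained the letters, 3 of these before the start, against 3.67% of all 27305 promoters. This motif was added after the changes of the list had been seen. The list was made of known ATF4 targets, so the shares describe its members and do not test their change in these cultures. The element is in capitals, read 5' to 3' on the gene's strand, and in CHAC1 it lies on the opposite strand. The windows are chr1:212565191-212565248 (plus strand) for ATF3, chr7:97872444-97872501 (minus) for ASNS and chr15:40953237-40953294 (plus) for CHAC1, with the motif beginning at −191, −68 and −209 from the start.
ATF3: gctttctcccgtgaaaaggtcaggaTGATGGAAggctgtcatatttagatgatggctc
ASNS: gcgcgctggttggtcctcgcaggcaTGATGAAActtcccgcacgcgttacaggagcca
CHAC1: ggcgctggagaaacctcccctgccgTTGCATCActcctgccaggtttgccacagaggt

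ER chaperones and their regulators had the second highest positive median change of the lists, 1.20, but a share of calls near that of all genes. Of 23 members tested 5 rose, none fell and 18 were not called, a share of 21.7% against 16.0% of all genes. DNAJB9, a co-chaperone that restrains IRE1, measured 8.68, 8.11 and 8.40 at 12 h and 12.4, 12.4 and 9.77 at 48 h, a rise of 3.14 ± 0.746 (adjusted p = 0.0124). HERPUD1, a component of ER-associated degradation, measured 10.5, 9.69 and 10.2 at 12 h and 13.9, 13.7 and 12.0 at 48 h, a rise of 3.09 ± 0.695. In both genes replicate 3 was well below the other 48 h arrays, though above all arrays at 12 h. A second HERPUD1 probe set that lay close to background changed by 0.66 and was not tested.

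The transcription factor XBP1 measured 9.21, 8.49 and 9.03 at 12 h and 11.2, 11.3 and 10.5 at 48 h, a rise of 2.10 ± 0.419 (adjusted p = 0.00579). ERN1, the sensor upstream of it, rose by 3.75 ± 0.689 from 5.98, 6.26 and 5.93 to 10.1, 10.3 and 9.04 (adjusted p = 0.00396). HSPA5, the main ER chaperone BiP, rose by 1.65 ± 0.406 from 14.1, 13.1 and 13.8 to 15.7, 15.6 and 14.5, or 3.13-fold, and SEL1L, a subunit of the ER ubiquitin ligase complex, by 1.88 ± 0.566. The chaperones without a call differed most between the 48 h arrays. SDF2L1 measured 12.4, 11.2 and 6.84 at 48 h against 8.42, 6.90 and 8.11 at 12 h, HYOU1 12.4, 11.2 and 9.36 against 9.09, 8.97 and 9.12, and CRELD2 13.1, 11.4 and 9.66 against 9.94, 9.72 and 9.74.

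On replicates 1 and 2 at 48 h, 22 and 20 of the 23 members lay above all 12 h arrays, and on replicate 3 the number was 12, with 6 below all of them. The 3 arrays of each time did not overlap for 11 of the 23, against 48.6% of all genes. Without the 48 h array of replicate 3, 15 members rose. Without that of replicate 1 or 2 the counts were 1 and 2, and without the 12 h array of replicate 2 the count was 3. DNAJB9 was not called without the 48 h array of replicate 1 (2.68) or 2 (2.71), and HERPUD1 without that of replicate 1 (2.74). HSPA5 was not called without either of these 48 h arrays or the 12 h array of replicate 2 (lowest 1.38), and SEL1L without any array other than the 48 h array of replicate 3 (1.35 to 2.51 over the 6).

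The ER stress response element, CCAAT and CCACG separated by 9 bases, was searched in the same promoters on both strands with any bases in the gap, a motif also added after the changes had been seen. It occurred in 6 of the 20 members with a promoter (30.0%), all before the start, against 0.0806% of all promoters. Of these, XBP1 and HSPA5 were called, and CRELD2, HSP90B1, CALR and CANX were not. The list was chosen for its role in the ER, so the shares describe its members and do not test their change in these cultures. CCAAT alone, which is part of it, was present in 95.0% of the members and 35.7% of all promoters. The windows of the called members XBP1 and HSPA5 and of CRELD2, which was not called, are shown to compare the element, at chr22:28800578-28800646 (minus), chr9:125241366-125241434 (minus) and chr22:49918529-49918597 (plus), with the whole element in capitals and on the opposite strand in CRELD2.
XBP1: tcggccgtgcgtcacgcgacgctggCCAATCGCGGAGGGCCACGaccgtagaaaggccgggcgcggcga
HSPA5: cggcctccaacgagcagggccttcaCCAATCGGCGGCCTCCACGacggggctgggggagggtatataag
CRELD2: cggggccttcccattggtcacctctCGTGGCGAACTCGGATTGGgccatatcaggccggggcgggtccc

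**Figure D2:**
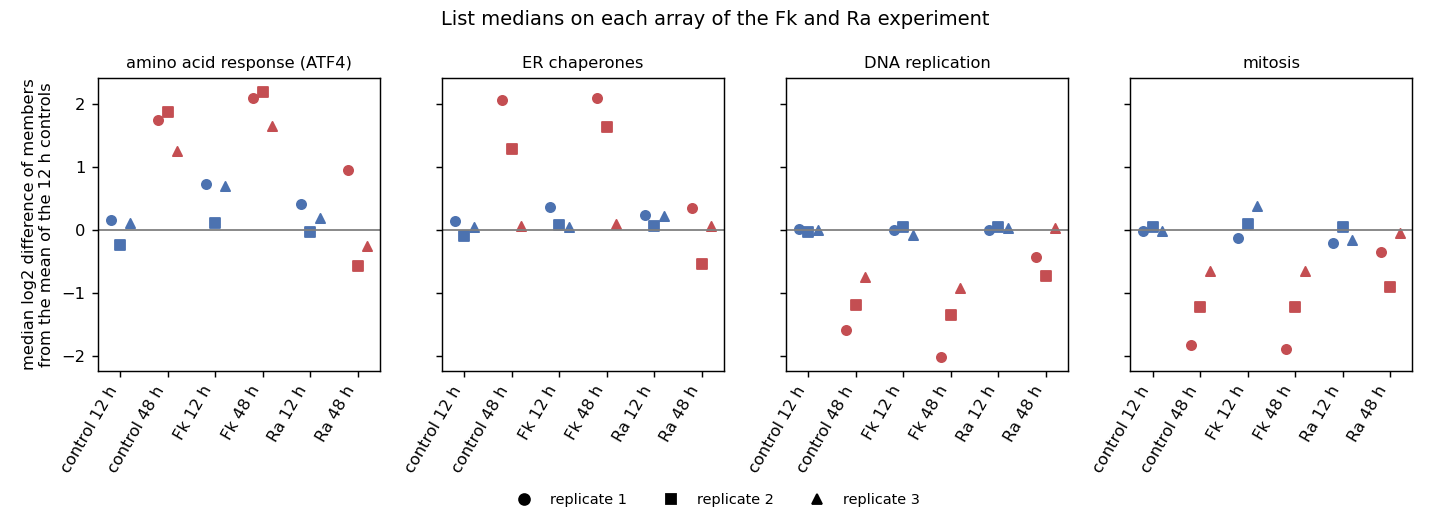
Median log2 difference of the members of 4 lists from their mean on the 12 h control arrays (y axis), for each array of the Fk and Ra experiment (x axis, groups; marker, replicate). On the control arrays at 48 h the ATF4 list lay at 1.75, 1.88 and 1.26 and the ER list at 2.06, 1.29 and 0.07, while the replication list lay at −1.58, −1.19 and −0.74 and the mitosis list at −1.82, −1.23 and −0.64.

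Genes of DNA replication were lower at 48 h. Of 39 tested 27 fell, none rose and 12 were not called (69.2% called), and the list's median change was −1.13. Origin licensing and firing factors were among the largest falls of all genes: MCM10, which loads the replicative polymerases, measured 8.72, 8.58 and 8.53 at 12 h and 4.72, 5.66 and 5.98 at 48 h, a change of −3.16 ± 0.578 (adjusted p = 0.0039). ORC1, the largest subunit of the origin recognition complex, measured 8.13, 8.12 and 8.11 at 12 h and 4.06, 4.64 and 6.70 at 48 h, a change of −2.99 ± 0.599 (adjusted p = 0.0059). The 12 h cultures were almost identical for ORC1, and the 48 h cultures spread over a wide range below them.

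The replicative helicase subunits MCM2 to MCM7 all fell, MCM5 with −1.45 ± 0.315 the most and MCM2 with −0.99 ± 0.324 the least, and so did GINS1 (−1.99), GINS2 (−1.91), GINS3 (−1.15) and GINS4 (−1.65) of the same helicase. Of these 10, MCM5, GINS1, GINS2 and GINS3 kept their call whichever array was left out. GINS4 and MCM7 were not called without the 48 h array of replicate 1 nor without the 12 h array of replicate 1 and 3 respectively, while MCM2, MCM3, MCM4 and MCM6 lost their call without 3 to 5 of the 6 arrays. RRM2, the regulated subunit of ribonucleotide reductase, measured 13.5, 13.6 and 13.4 at 12 h and 10.7, 11.4 and 12.1 at 48 h, a change of −2.10 ± 0.438 (adjusted p = 0.00691). CDC6, a licensing factor, went the other way on 2 of the 3 arrays: it measured 9.94, 9.84 and 9.80 at 12 h and 11.1, 10.8 and 8.73 at 48 h, a change of 0.34 ± 0.593 that was not called. CDC6 was named after its values were seen, as the list member with a positive change. The count of falls was 13 without the 48 h array of replicate 1 or the 12 h array of replicate 3, and 17 without the 48 h array of replicate 2 or the 12 h array of replicate 1.

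Genes of mitosis were lower too. Of 42 tested 31 fell, none rose and 11 were not called (73.8% called), with a median change of −1.23. SPC25, a subunit of the NDC80 kinetochore complex, measured 10.3, 10.4 and 10.3 at 12 h and 7.17, 7.88 and 9.06 at 48 h, a change of −2.29 ± 0.429 (adjusted p = 0.00424). The mitotic kinase PLK1 measured 8.66, 9.22 and 9.33 at 12 h and 6.43, 6.97 and 8.42 at 48 h, a change of −1.79 ± 0.401, and the spindle motor KIF11 fell by the same amount, 1.79 ± 0.397. Replicate 1 was the lowest of the 48 h arrays and replicate 3 the highest in all 3 genes. The proliferation marker MKI67 fell by 1.37 ± 0.296, from 11.28, 11.06 and 10.97 to 9.14, 9.68 and 10.38. Falls numbered 6 without the 48 h array of replicate 1, 12 without that of replicate 2, 19, 15 and 15 without the 12 h array of replicate 1, 2 or 3, and 36 without the 48 h array of replicate 3. PLK1 and KIF11 were not called without the 48 h array of replicate 1 (−1.37 and −1.43), and 6 of the 31 members, MKI67 and SPC25 among them, kept their call whichever array was left out.

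Promoters of mitotic genes are known for the cell cycle genes homology region, TTTGAA, through which the DREAM complex represses them in resting cells, often together with CCAAT boxes. TTTGAA, searched on both strands, was present in 26 of the 36 mitosis members with a promoter (72.2%), in 20 of them before the start, against 15.4% of all promoters and 2.86% of the replication members. The members were chosen as mitotic genes, so these shares do not test their change here. GGCGGG, the core of a GC box, was found in 80.0% of the replication members, 80.6% of the mitosis members and 44.7% of all promoters, and also in 86.4%, 80.0% and 93.3% of the ATF4, ER and clock members. The windows of 4 called members with the motif just upstream of the start are shown so that its surroundings can be compared, with TTTGAA in capitals, as TTCAAA where it lies on the opposite strand: PLK1 at chr16:23678835-23678888 (plus), KIF11 at chr10:92593077-92593129 (plus), BUB1B at chr15:40161021-40161068 (plus) and KIF4A at chrX:70290045-70290100 (plus).
PLK1: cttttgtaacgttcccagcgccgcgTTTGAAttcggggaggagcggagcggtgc
KIF11: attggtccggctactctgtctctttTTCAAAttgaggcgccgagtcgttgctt
BUB1B: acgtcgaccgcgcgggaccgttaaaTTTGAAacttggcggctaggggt
KIF4A: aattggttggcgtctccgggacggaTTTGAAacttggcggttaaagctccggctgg

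In the G1 list, which holds cyclins, CDKs, E2F factors and CDK inhibitors, 9 of 24 fell and 3 rose (50% called), with a median change of −0.63. CCNE2, a cyclin that drives entry into S phase, measured 9.79, 9.91 and 9.72 at 12 h and 6.68, 6.97 and 7.52 at 48 h, a change of −2.75 ± 0.317 or 6.73-fold (adjusted p = 0.000549). SKP2, the ubiquitin ligase subunit that removes the inhibitor p27, measured 10.2, 10.1 and 10.2 at 12 h and 7.32, 6.60 and 8.08 at 48 h, a change of −2.85 ± 0.375 (adjusted p = 0.000821). CCND1, the growth factor responsive cyclin D1, measured 9.40, 9.61 and 9.59 at 12 h and 6.23, 6.74 and 7.78 at 48 h, a change of −2.62 ± 0.498 (adjusted p = 0.00455). These 3 genes kept their call whichever array was left out.

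The 3 rises of the G1 list were the CDK inhibitors CDKN1A (p21), by 1.29 ± 0.319 from 10.8, 10.3 and 9.95 to 12.0, 11.7 and 11.3, and CDKN1C (p57), by 1.15 ± 0.275 from 8.44, 8.53 and 7.99 to 9.47, 9.34 and 9.59, and the kinase CDK4, by 0.43 ± 0.135. CDKN1B, which encodes p27, was not called at 0.60 ± 0.283, nor was MYC at 0.17 ± 0.513. Falls numbered 5 without the 48 h array of replicate 1, and rises numbered 1 without the 48 h array of replicate 1 or 2 and 0 without the 12 h array of replicate 3. CDKN1A was not called without the 48 h array of replicate 1 (1.11) or 2 (1.28) or the 12 h array of replicate 3 (1.08), CDKN1C without the last of these (0.98), and CDK4 without any array other than the 48 h array of replicate 3 (0.38 to 0.50 over the 6).

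Of 22 p53 targets, some of which are shared with the lists above, 4 rose and 2 fell, with a median change of 0.28. The falls lay at −1.18 and −0.78, and 1 of the 6 calls, that of GADD45A, was kept whichever array was left out. The share of calls was 27.3%, against 16.0% of all genes. Apart from CDKN1A and SESN2, GADD45A, a growth arrest gene that ATF4 also induces, rose by 2.21 ± 0.363 from 10.2, 9.57 and 10.4 to 12.0, 12.2 and 12.5 (adjusted p = 0.00244). The count of rises was 1 without the 48 h array of replicate 1 or the 12 h array of replicate 3, and 2 without the 48 h or the 12 h array of replicate 2.

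TXNIP had the largest fall of all genes. It encodes an arrestin that limits glucose uptake and is induced by glucose through MLXIP and MLXIPL. It measured 8.37, 8.74 and 9.39 at 12 h and 3.76, 3.71 and 4.18 at 48 h, a change of −4.95 ± 0.962 to about background (adjusted p = 0.00501), so its size depends on the background correction. It was the single call among 5 genes of glucose sensing tested, a share of 20% against 16.0% of all genes. SLN, which encodes a regulator of the calcium pump of the sarcoplasmic reticulum, measured 9.92, 9.44 and 10.2 at 12 h and 3.18, 3.86 and 7.71 at 48 h, a change of −4.94 ± 1.17 (adjusted p = 0.0121). Replicate 3 kept a clear SLN signal at 48 h, whereas replicates 1 and 2 were at background.

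The hyaluronan-binding protein gene TNFAIP6 measured 8.09, 8.45 and 9.00 at 12 h and 2.88, 3.47 and 5.78 at 48 h, a change of −4.47 ± 1.04. NAV3, a microtubule-associated protein gene, measured 7.36, 5.80 and 7.86 at 12 h and 2.70, 3.20 and 3.81 at 48 h, a change of −3.77 ± 0.677 to background (adjusted p = 0.00347). SOX9, a transcription factor induced in injured and regenerating tubules, measured 8.77, 8.76 and 8.10 at 12 h and 4.49, 5.37 and 5.27 at 48 h, a change of −3.50 ± 0.841 (adjusted p = 0.0129). SOX9 was the single fall in the list of 14 kidney injury markers, in which IGFBP7 and CLU rose by 0.57 ± 0.154 and 0.57 ± 0.179. The list's share of calls was 21.4%, against 16.0% of all genes.

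CCBE1, a secreted protein needed for lymphatic growth, fell by 3.42 ± 0.879 from 7.38, 7.39 and 8.16 to 3.62, 3.75 and 5.29, ZBED2, a zinc finger transcription factor, by 2.95 ± 0.514 and DPYSL3, a cytoskeletal regulator, by 2.86 ± 0.494 from 10.4, 10.9 and 11.2 to 7.67, 7.72 and 8.47. Several of these calls rest on the number of arrays. SLN was not called without the 48 h array of replicate 1 (−4.07) or 2 (−4.41), and TNFAIP6 (−3.88) and SOX9 (−3.22) without that of replicate 1. CCBE1 was not called without the 48 h array of replicate 1 (−3.12) or 2 (−3.19) or the 12 h array of replicate 3 (−3.16). IGFBP7 was not called without the 12 h array of replicate 2 (0.55) or 3 (0.50) or the 48 h array of replicate 2 (0.51), and CLU in none of the fits that leave out an array (0.46 to 0.67).

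The other genes of the 12 largest rises were PLA1A, a phosphatidylserine-specific phospholipase, which rose by 4.53 ± 0.77 from background to 8.54, 7.84 and 6.76, LURAP1L, by 3.83 ± 0.906 to 9.68, 9.28 and 8.02, ANK2, which encodes ankyrin B, by 3.66 ± 0.572 from 5.98, 4.89 and 5.85 to 9.41, 9.89 and 8.40, and HRK, a proapoptotic BH3-only gene, by 3.46 ± 0.687 from background to 6.97, 6.87 and 5.03. In all 4 the array of replicate 3 was the lowest at 48 h. LURAP1L was not called without the 48 h array of replicate 1 (3.49) or the 12 h array of replicate 3 (3.57).

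**Figure D3:**
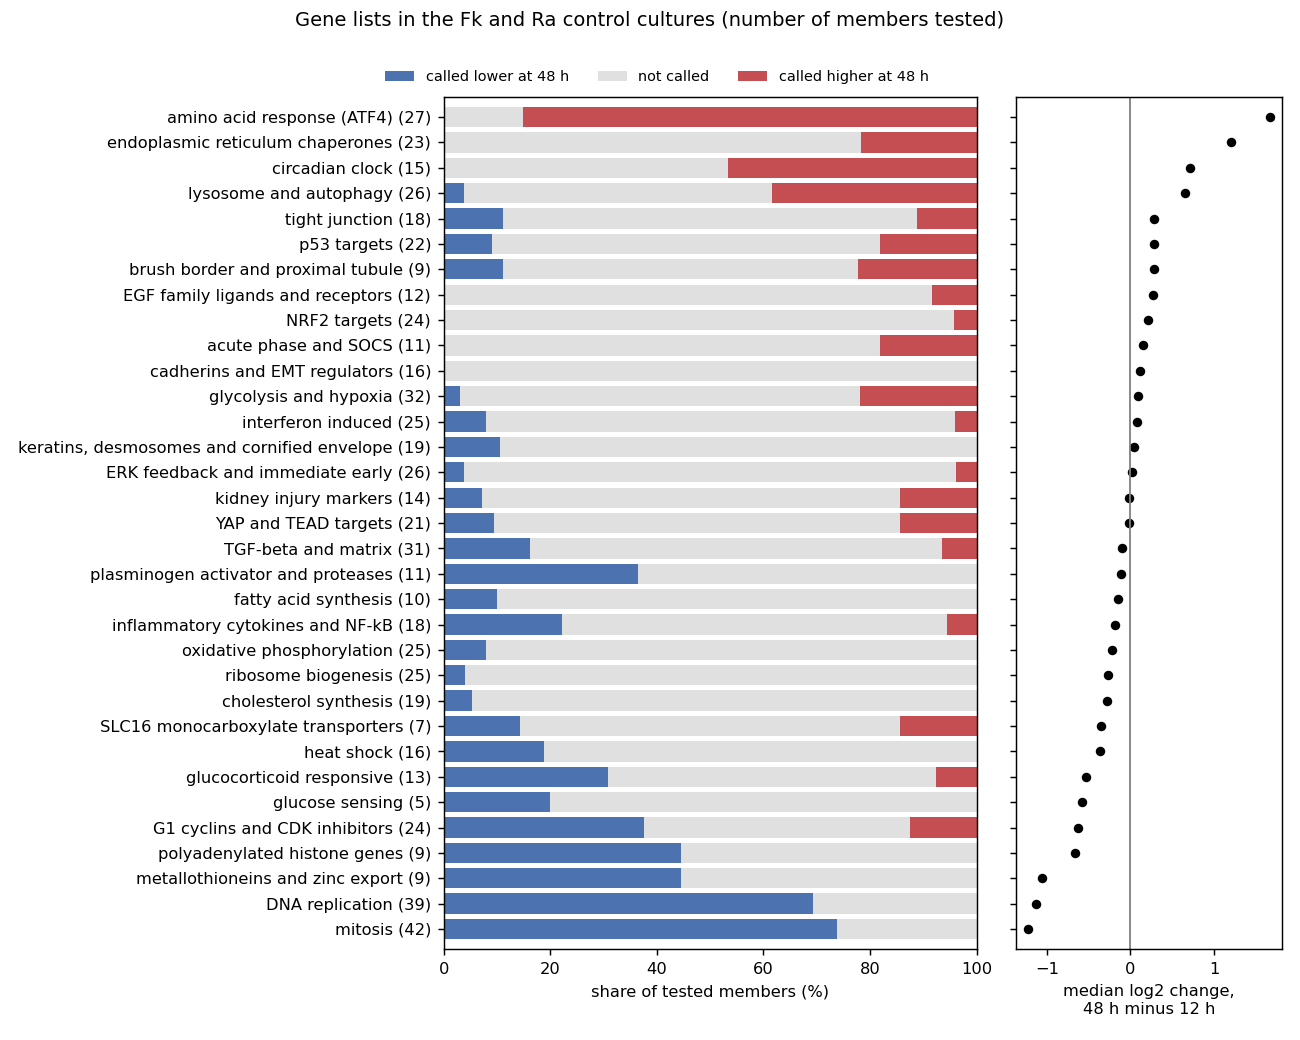
Share of the tested members of 33 gene lists that were called lower (blue), not called (grey) or called higher (red) at 48 h (left, x axis in percent, number tested in brackets) and the median log2 change of each list (right). The lists run from mitosis, with 73.8% called and a median of −1.23, to the ATF4 list, with 85.2% called and a median of 1.68.

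The lists together held 784 genes, 621 of them tested. Circadian clock genes, which form the feedback loop of daily rhythms and its output factors, were higher in part: 7 of 15 rose and none fell (46.7% called), with a median change of 0.72. NFIL3, a repressor at D-box elements, measured 8.85, 8.70 and 8.95 at 12 h and 10.99, 11.30 and 11.07 at 48 h, a rise of 2.29 ± 0.376 (adjusted p = 0.00244). BHLHE41, a repressor of the clock, measured 8.05, 8.01 and 7.80 at 12 h and 10.0, 10.2 and 10.6 at 48 h, a rise of 2.32 ± 0.372 (adjusted p = 0.0021). In both genes replicate 3 was as high as the other arrays of its time.

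The nuclear receptor NR1D2 rose by 2.00 ± 0.271, from 8.07, 7.30 and 7.84 to 9.38, 9.60 and 10.2, CIART by 2.82 ± 0.815, the D-box activators DBP and TEF by 1.78 ± 0.548 (from background) and 1.13 ± 0.352, and CRY1 by 0.64 ± 0.207. CLOCK, PER3 and CRY2 were not called, at −0.43 ± 0.444, 0.02 ± 0.218 and 0.01 ± 0.147. The times lie 36 h apart, and whether a daily rhythm was present in these cultures was not tested. The count was 3 without any single array other than the 48 h array of replicate 3, and 4 without that array. NFIL3, BHLHE41 and NR1D2 were called in each of these fits, CIART (2.62 to 3.05), TEF (0.89 to 1.31) and CRY1 (0.59 to 0.69) in none, and DBP only without the 48 h array of replicate 3 (1.35 to 2.06 over the 6).

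Lysosome and autophagy genes also rose, 10 of 26, with 1 fall (42.3% called) and a median change of 0.65. MAP1LC3B, which encodes the autophagosome protein LC3B, rose by 1.30 ± 0.223 from 11.26, 10.90 and 11.01 to 12.55, 12.50 and 12.01 (adjusted p = 0.00291). NPC1, the lysosomal cholesterol exporter, rose by 1.31 ± 0.257 from 11.6, 11.1 and 10.9 to 12.5, 12.5 and 12.5, and WIPI1, an early autophagy factor, by 1.70 ± 0.521, with replicate 3 lowest at 48 h. The autophagy receptor SQSTM1 and GABARAPL1, a relative of LC3B, rose by 0.85 ± 0.262 and 1.20 ± 0.272. Rises numbered 3 without the 48 h array of replicate 1 or the 12 h array of replicate 3, 4 without the 48 h or the 12 h array of replicate 2 and 6 without the 12 h array of replicate 1. MAP1LC3B, NPC1 and GABARAPL1 kept their call in all 6 fits, while WIPI1 (1.19 to 2.18) and SQSTM1 (0.67 to 1.03) were called only without the 48 h array of replicate 3.

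In the list of glycolysis and hypoxia genes 7 of 32 rose and 1 fell, with a median change of 0.09. The share of calls was 25%, against 16.0% of all genes. The rises were not those of glycolytic enzymes. VEGFA, an angiogenic factor that both hypoxia and ATF4 induce, measured 9.82, 9.83 and 9.73 at 12 h and 12.5, 12.3 and 12.0 at 48 h, a rise of 2.47 ± 0.402 or 5.54-fold (adjusted p = 0.00235). NDRG1, a stress gene, rose by 1.88 ± 0.36 and the glucose transporters SLC2A3 and SLC2A1 by 1.53 ± 0.425 and 0.86 ± 0.233. KDM3A, MXI1 and PDK1 completed the rises, at 0.92 ± 0.279, 1.28 ± 0.375 and 0.74 ± 0.242. The pyruvate kinase gene PKM fell by 0.66 ± 0.198, and GAPDH (−0.02 ± 0.13), LDHA (−0.23 ± 0.155) and PGK1 (−0.41 ± 0.163) were not called. Rises numbered 2 without the 48 h array of replicate 1 or 2 or the 12 h array of replicate 2 or 3. SLC2A3 was not called without the 48 h array of replicate 1 (1.63) or 2 (1.47) or the 12 h array of replicate 2 (1.51) or 3 (1.26), nor were SLC2A1 (0.75 to 0.97 over the 6) and MXI1 (0.98 to 1.46) without these 4. KDM3A (0.82 to 1.03) and PKM (−0.78 to −0.58) were called only without the 48 h array of replicate 3, and PDK1 in none of the 6 fits (0.67 to 0.89).

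In the list of metallothioneins, small zinc-binding proteins that zinc and glucocorticoids induce, and zinc exporters, 4 of 9 genes fell and none rose (44.4% called). The median change was −1.06. MT1X measured 13.2, 13.4 and 13.5 at 12 h and 11.7, 11.5 and 13.0 at 48 h, a change of −1.32 ± 0.379, and MT2A fell by 1.08 ± 0.32, MT1G by 1.34 ± 0.411 and MT1M by 1.42 ± 0.383. At 48 h these genes were highest on replicate 3, on which MT1X lay just below its 12 h arrays. Without the 48 h array of replicate 3, 8 fell, and without any other of the 6 none did. Probes of metallothionein genes can share sequence, so the members are not independent.

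Of 13 glucocorticoid responsive genes 4 fell and 1 rose (38.5% called), MT1X and MT2A being among the falls. SGK1, a kinase that raises sodium transport, measured 12.8, 12.9 and 13.3 at 12 h and 10.2, 11.2 and 11.1 at 48 h, a change of −2.16 ± 0.552, whereas TSC22D3, known as GILZ, rose by 1.67 ± 0.507 from 7.96, 8.09 and 8.47 to 10.4, 9.53 and 9.59. These genes of 1 hormone thus moved in opposite directions. SGK1 was not called without the 48 h array of replicate 1 (−1.85) or the 12 h array of replicate 3 (−2.03), and TSC22D3 was called only without the 48 h array of replicate 3 (1.38 to 1.82 over the 6). No call of this list was kept whichever array was left out.

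Among 18 inflammatory genes 4 fell and 1 rose, a share of 27.8% against 16.0% of all genes. Without the 48 h array of replicate 1 the fall of CXCL5 alone of these 5 was called. CXCL5, a neutrophil chemokine, fell by 2.51 ± 0.532 from 9.67, 9.44 and 10.4 to 6.62, 7.58 and 7.78 (adjusted p = 0.00749), and kept its call whichever array was left out. CFB, complement factor B, rose by 2.16 ± 0.513, but its second probe set, which was not tested, changed by 0.25. Without the 48 h array of replicate 1 (1.93) or the 12 h array of replicate 1 (1.96) CFB was not called. In the interferon list 2 of 25 fell and 1 rose, a share of 12% that is below the 16.0% of all genes, and OAS3, an antiviral oligoadenylate synthetase, fell by 1.71 ± 0.3 from 8.32, 8.48 and 8.07 to 6.22, 6.44 and 7.07 (adjusted p = 0.00322). The other 2 calls of that list, BST2 and IRF1, were made only without the 48 h array of replicate 3 among the fits that leave out an array (−0.91 to −0.54 and 1.08 to 1.88).

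Of 9 brush border and proximal tubule genes tested 2 rose and 1 fell, a share of 33.3% against 16.0% of all genes. MIOX, a kidney enzyme that breaks down inositol, rose by 1.42 ± 0.245 from 8.58, 8.23 and 8.15 to 10.0, 9.78 and 9.41 (adjusted p = 0.00291), and ENPEP, the brush border aminopeptidase A, by 1.16 ± 0.17 from 9.13, 8.71 and 8.64 to 9.93, 10.1 and 9.98 (adjusted p = 0.00146). LHX1, a transcription factor of the developing nephron, fell by 1.43 ± 0.392 to 3.54, 3.66 and 4.38, and was not called without the 48 h array of replicate 1 (−1.27) or 2 (−1.33) or the 12 h array of replicate 1 (−1.49) or 3 (−1.23). SLC16A4, a monocarboxylate transporter gene, rose by 1.69 ± 0.284 from 9.11, 9.07 and 9.28 to 11.4, 10.7 and 10.4 (adjusted p = 0.00278).

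In the heat shock list 3 of 16 fell and none rose, a share of 18.8% that is near the 16.0% of all genes: DNAJA1, a cytosolic co-chaperone, by 1.11 ± 0.206 from 13.2, 13.1 and 13.1 to 12.2, 12.1 and 11.8 (adjusted p = 0.00413), the mitochondrial chaperonin HSPE1 by 1.02 ± 0.225 and HSP90AA1 by 0.66 ± 0.161. HSPE1 was not called without the 48 h array of replicate 1 (−0.88), nor HSP90AA1 without that array (−0.55) or the 12 h array of replicate 3 (−0.63). Of 9 polyadenylated histone genes 4 fell and none rose, a share of 44.4% against 16.0% of all genes. The largest fall was that of H2AX, by 1.41 ± 0.24 from 10.7, 10.7 and 10.4 to 8.95, 9.16 and 9.40 (adjusted p = 0.0029). The other 3 falls, H1-2, H2AJ and H2AZ1, were called only without the 48 h array of replicate 3 among the fits that leave out an array (−0.94 to −0.55, −0.96 to −0.53 and −0.84 to −0.52). H2AC6, at 3.24 ± 1.11, was not called.

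Several other lists had shares of calls below the background of 16.0%. In cholesterol synthesis 1 of 19 fell and none rose, in ribosome biogenesis 1 of 25 and in oxidative phosphorylation 2 of 25 fell with no rise. Of 24 NRF2 targets 1 rose, SLC7A11, which the ATF4 list also holds. Keratins and desmosomes had 2 falls of 19, and the EGF family had 1 rise of 12. None of the calls in these lists other than SLC7A11 was kept whichever array was left out. Above the background, TGF-beta and matrix genes had 5 falls and 2 rises of 31 (22.6% called), and plasminogen activators and proteases 4 falls and no rise of 11 (36.4% called). Without the 48 h array of replicate 1 none of these 4 falls was called, and of the 5 TGF-beta and matrix falls only that of COL6A1 was. COL6A1 (−0.96 to −0.77) and LAMB1 (0.87 to 0.99) were the calls of that list kept whichever array was left out, and the protease list had none.

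The same genes were followed in the other untreated cultures, which share no array with these. Of the 1740 genes called, 97.8% had a change of the same sign in the CsA controls between 12 and 48 h and 94.1% in the CdCl and Di controls, against 80.1% and 74.2% of all genes tested. The median of the ATF4 list was 1.78 in the CsA controls and 1.76 in the CdCl and Di controls, and all 27 members were higher at 48 h in both. The ER list had medians of 1.44 and 1.70, the replication list −1.09 and −1.48 and the mitosis list −1.19 and −1.90. The lab and the experiment cannot be told apart, since the CsA labels name a lab and the others none.

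DDIT3 reached means of 13.6, 13.3 and 13.3 at 48 h in the controls of Fk and Ra, CdCl and Di, and CsA. In the controls of Aa and of Nnm and Kbr at 48 h, which also share no array with these, its means were 9.09 and 9.58, with highest arrays at 9.46 and 10.9. Those 48 h cultures therefore lay below every 48 h array of the first 3 experiments, the lowest of which was 12.5. In the Ota controls DDIT3 was at 7.93 at 24 h and 12.9 at 72 h. The means were split in the same way for INHBE, at 11.8, 12.5 and 11.7 at 48 h in the first 3 experiments against 7.84 and 8.66. Those of DNAJB9 were 11.5, 12.4 and 12.1 against 9.19 and 9.39. On the 48 h array of replicate 3 of the Fk and Ra controls, however, DNAJB9 was at 9.77, near the last 2 means.

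**Figure D4:**
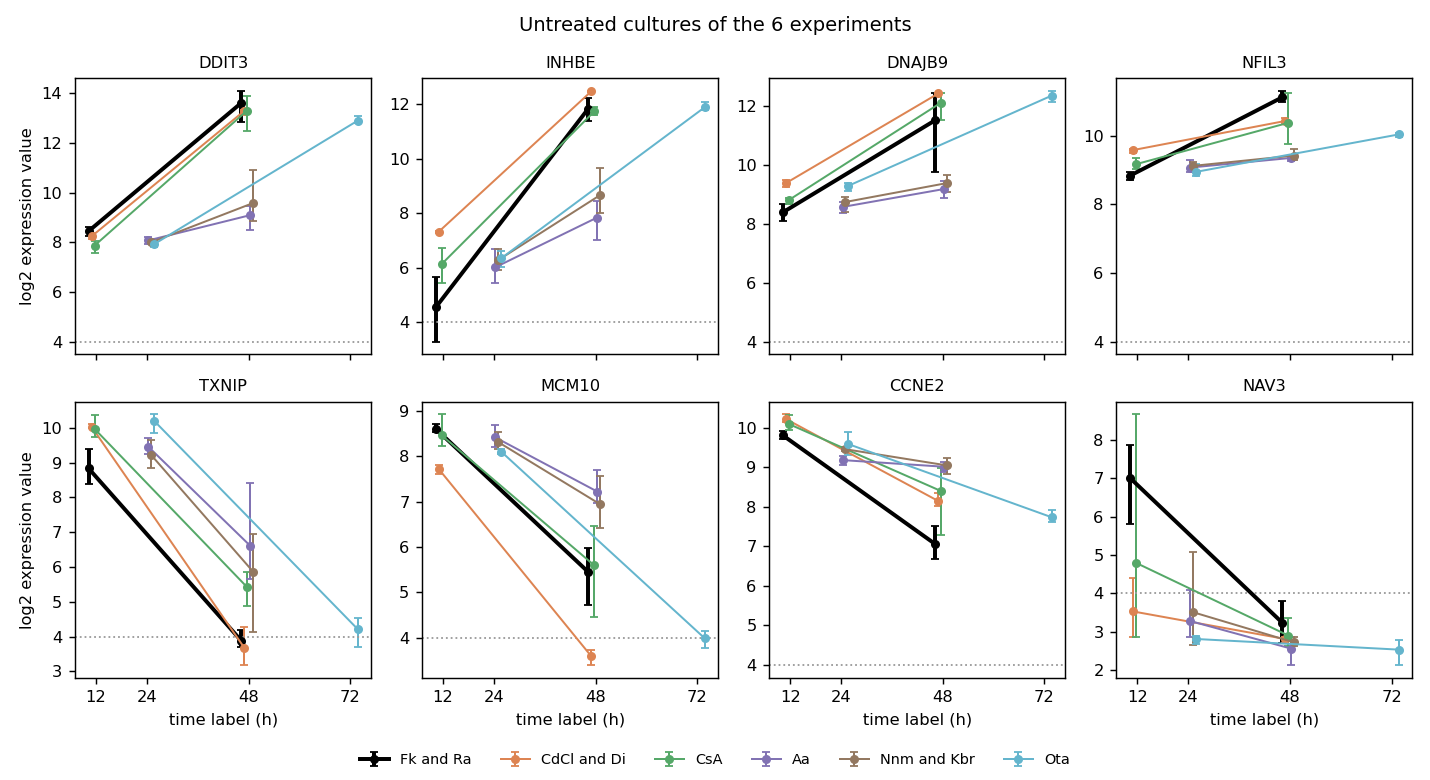
Log2 expression values (y axis) of 8 genes in the untreated cultures of the 6 experiments against the time in the labels in hours (x axis, points set slightly apart), as the mean of 3 arrays with the lowest and highest array as bars, and with a line joining the times of 1 experiment. DDIT3 means at 48 h were 13.3 to 13.6 in 3 experiments and 9.09 and 9.58 in the Aa and the Nnm and Kbr controls, and NAV3 at 12 h was 7.01 in the Fk and Ra controls and 3.53 in those of CdCl and Di.

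Of the 1740 genes, 89.4% had the same sign in the Aa controls between 24 and 48 h and 90.7% in those of Nnm and Kbr (69.1% and 69.6% of all genes). The ER list had medians of −0.11 and −0.10 in these 2 sets of cultures, the ATF4 list 0.30 and 0.39 and the mitosis list −0.51 and −0.61. In the Ota controls between 24 and 72 h the sign was the same for 92.2%, and the ER, ATF4 and mitosis lists lay at 2.06, 1.99 and −1.79. The intervals differ between these cultures, so the values are set side by side without a comparison.

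Some of the largest falls started from a mean that was above those of the other untreated cultures. NAV3 was at 7.01 at 12 h in the Fk and Ra controls, and its means in the other 5 experiments at 12 or 24 h were 2.82 to 4.80. CCBE1 was at 7.64, against 2.99 to 4.72 elsewhere, and CCND1 at 9.53 against 7.07 to 7.84. In the CsA controls at 12 h a single array, replicate 3, held NAV3 at 8.65, CCBE1 at 7.34 and TNFAIP6 at 10.8, while the group's lowest arrays were at 2.87, 3.23 and 3.91. PLA1A showed the reverse: it was at 3.19 at 12 h here and between 7.28 and 8.34 in the other 5 experiments at 12 or 24 h.

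The difference between the time changes was tested directly. Against the CdCl and Di controls limma called 102 of 10968 genes (0.930%), 77 with a more positive change in the Fk and Ra controls and 25 with a more negative one. OLFML2A, an extracellular matrix protein gene, showed the largest difference, 3.04 ± 0.57: its mean was 6.34 at both times here and went from 6.79 to 3.75 there (adjusted p = 0.023). TIAM1, an exchange factor for Rac, differed likewise by 2.67 ± 0.429, from 6.17 to 6.04 here and from 6.03 to 3.22 there. OASL, an interferon-induced gene, differed by 2.87 ± 0.394 (adjusted p = 0.00223), with 3.44 and 4.86 here and 4.55 and 3.10 there, and CHI3L1, a chitinase-like glycoprotein, by 2.71 ± 0.575, with 5.70 and 8.39 here against 8.37 and 8.35. OASL was thus at background at 12 h here, and its second probe set, which was not tested, went only from 4.31 to 4.52.

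The noncoding RNA gene DIRC3 differed by 2.66 ± 0.357 (adjusted p = 0.00178): it went from 2.75 to 5.42 here and stayed at background in the CdCl and Di controls, 2.36 and 2.37. Among the negative differences, DANCR, a noncoding RNA that hosts small nucleolar RNAs, stood at −1.92 ± 0.214 (adjusted p = 0.000481), with 9.71 and 8.59 here and 9.28 and 10.1 there. LOC100190986 differed by −2.23 ± 0.4, ZNF667-AS1 by −1.89 ± 0.34, LINC00663 by −1.86 ± 0.414 and CFAP70 by −1.77 ± 0.316. In this order they changed by −0.15, −0.45, 0.38 and 0.46 here and rose by 2.07, 1.45, 2.23 and 2.23 there. CFAP70 was at background here, with means of 3.08 and 3.53. The number of calls was 21 to 52 without any array of the 2 sets other than the 48 h arrays of replicates 1 and 3 of the Fk and Ra controls, and 167 without that replicate 3. The median of this difference over the 27 ATF4 members was 0.057. OLFML2A was called in 4 of the 12 fits that leave out an array (2.67 to 3.29) and CHI3L1 in 1 (2.42 to 3.01), LINC00663 in 1 (−2.17 to −1.68), ZNF667-AS1 in 7 (−2.23 to −1.63), and LOC100190986 and CFAP70 (−1.98 to −1.52) in 9 each. OASL, TIAM1 and DANCR were called in all 12. DIRC3 entered this test only through the Fk and Ra controls at 48 h, the group in which it is high, and without any of those 3 arrays it was not tested, so its difference is given as a description.

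Against the CsA controls 13 genes were called (0.119%), 8 with a more positive and 5 with a more negative change. UCA1, a noncoding RNA, differed by 3.11 ± 0.522, with 7.92 and 9.16 here and 7.88 and 6.01 there (adjusted p = 0.0286). PTGS1, the constitutive cyclooxygenase, differed by 1.71 ± 0.211 (adjusted p = 0.00832), with 5.37 and 7.01 here and 5.40 and 5.32 there. Other PTGS1 probe sets at similar levels, which were not tested, rose here by only 0.27 and 0.48, and 1 near background by 1.07. DIRC3, with the same arrays of the Fk and Ra controls and the same limit, stood at 2.40 ± 0.357. The zinc transporter gene SLC39A11 differed by 1.69 ± 0.282 and EDIL3, an integrin ligand, by 1.56 ± 0.242. The adhesion receptor VCAM1 stood at −2.19 ± 0.347, with 6.46 and 4.68 here and 8.10 and 8.52 there, and the methionine adenosyltransferase gene MAT2A and the cytokine receptor IL31RA differed by −1.12 and −1.02. ZNF365 and NUDT11, at −1.68 and −1.36, entered the test only through the Fk and Ra controls at 12 h, the group in which they are high, and are given as a description. The number called ran from 1 without the CsA 12 h array of replicate 1 or 2 to 90 without that of replicate 3 and 60 without the CsA 48 h array of replicate 3, and was 2 without the Fk and Ra control array of replicate 2 at either time and 5 and 8 without the 12 h arrays of replicates 1 and 3 of these controls. PTGS1 was called whichever array was left out (1.59 to 1.88), and the calls of the other 9 named genes were lost in 3 to 9 of the fits in which they were tested.

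The compound arms of the same experiment have their own arrays at both times. For Fk, limma called none of 10889 genes in the difference of the time changes (0%), and 231 had an unadjusted p under 0.05. With no filter 1 gene was called, and 1 with the mean of all probe sets. Of the 1740 genes 99.4% had the same sign in the Fk cultures, against 80.5% of all genes. The ATF4, ER, replication and mitosis lists had medians of 1.61, 1.09, −1.35 and −1.37 there. The 48 h arrays of Fk were ordered as those of the controls, with ER list values of 2.10, 1.63 and 0.09 for replicates 1, 2 and 3 against 2.06, 1.29 and 0.07, and the deviations of same-numbered arrays at 48 h from their group means correlated at 0.76, −0.0221 and 0.581 across genes, which are not independent replicates.

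In the Ra cultures the changes over time of these genes lay nearer to 0. Of the 1740 genes 74.0% had the same sign, against 58.7% of all genes, and the genes called higher in the controls had a median of 0.025 there, those called lower a median of −0.44. The ATF4 list had a median of −0.12, with 11 of 27 members above 0, the ER list −0.19, the replication list −0.40 and the mitosis list −0.38. By array at 48 h, the ATF4 list stood at 0.95, −0.57 and −0.25 and the mitosis list at −0.35, −0.90 and −0.05 relative to the 12 h controls. Replicate 2, the array that stands apart, was the lowest in all 4 lists. Replicates 1 and 3 lay nearer to 0 than every 48 h control array in the ATF4, replication and mitosis lists, and in the ER list, at 0.36 and 0.06, replicate 1 lay within the range of the controls. The Fk and Ra arms share their control arrays.

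**Figure D5:**
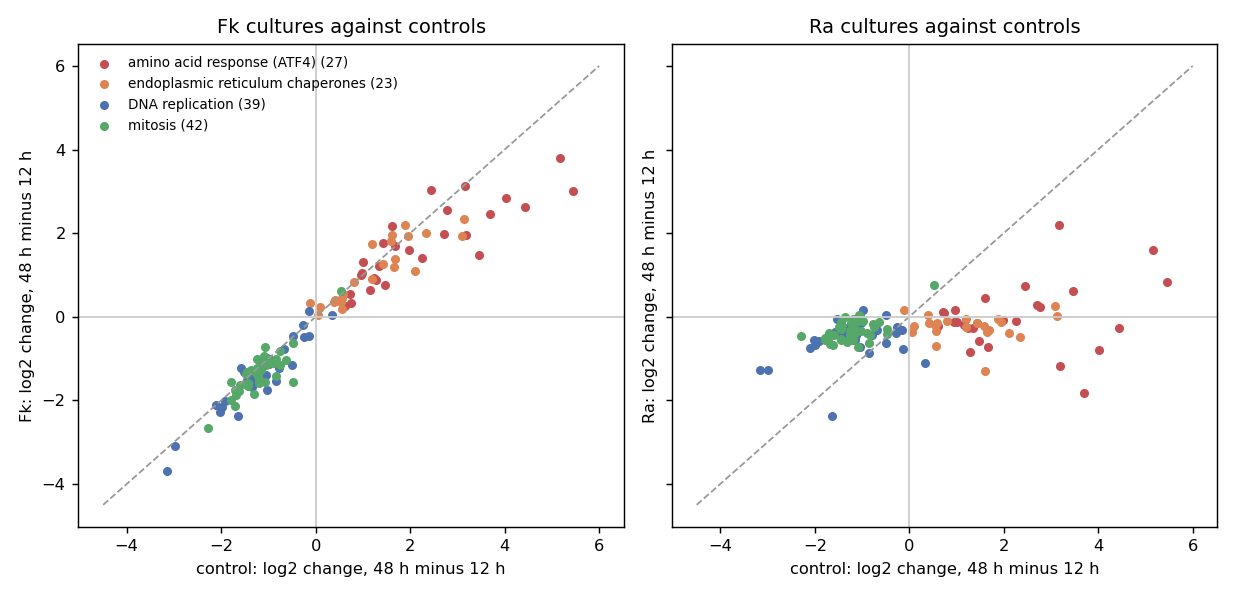
Log2 change between 12 and 48 h of the tested members of 4 lists in the Fk cultures (left, y axis) and the Ra cultures (right, y axis) against the same change in their controls (x axis), 1 point per gene with the number of genes in brackets and the dashed line marking equal change. Points of Fk lie along the line, with list medians of 1.61, 1.09, −1.35 and −1.37, and those of Ra lie nearer to 0, with medians of −0.12, −0.19, −0.40 and −0.38.

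The difference between the Ra and control time changes was called for 5 genes (0.0459%), all with a lower change in Ra and 1 of them in the ATF4 list, while 1803 had an unadjusted p under 0.05. ALDH1L2 went from 4.33 to 8.03 in the controls and from 6.07 to 4.25 in Ra, a difference of −5.52 ± 0.812 (adjusted p = 0.0141). ANK2 went from 5.57 to 9.23 in the controls and from 7.09 to 5.25 in Ra, a difference of −5.50 ± 0.809. ENPP2, which encodes the lysophospholipase autotaxin, differed by −2.25 ± 0.373. ENPEP differed by −1.71 ± 0.24, from 8.83 to 9.99 in the controls and from 8.83 to 8.28 in Ra. DIRC3 differed by −2.74 ± 0.392, from 2.75 to 5.42 in the controls and from 2.46 to 2.39 in Ra. Among these groups its mean was above log2 4 only in the 48 h controls, so its difference is given as a description. The median difference of all genes was −0.20, and with quantile normalization 120 genes were called. With the replicate number as a block 82 were. Same-numbered Ra and control arrays deviated from their group means with correlations of 0.134, 0.339 and 0.285 across genes at 12 h and 0.263, −0.176 and 0.0945 at 48 h. The number was 735 without the Ra 48 h array of replicate 1, 69 without the control 48 h array of replicate 3, 9 and 8 without the Ra 48 h array of replicate 2 or 3, and 3 without the control 12 h array of replicate 1. It was 0 without the Ra 12 h array of replicate 1 or 3, the control 48 h array of replicate 1 or 2 or the control 12 h array of replicate 2 or 3. Each of the 5 calls was thus lost in some of the 12 fits, with values of −6.13 to −5.07 for ALDH1L2, −6.20 to −4.77 for ANK2, −3.02 to −2.52 for DIRC3, −2.65 to −2.05 for ENPP2 and −1.86 to −1.62 for ENPEP.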

How the data were processed

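The deposited values were made with GCRMA, per the submitters' processing notes, and are on a log2 scale, with a value for each probe set on each array. They were used as they stood. Of 54675 probe sets, 41091 carry 1 gene symbol, 1801 several and 11721 none, and 62 are array controls. A gene, of which there are 19775, was read from its brightest probe set on average. Depth does not apply to arrays, so the number of arrays, 3 per group, limits the precision.

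The test was limma 3.58.1 (R 4.3.3) with a mean per group and empirical Bayes moderation. The 18 arrays of the Fk and Ra experiment entered the first comparison and the compound arms, and the 18 control arrays at 12 and 48 h the differences between experiments, with 15.5 and 14.9 degrees of freedom. The spread is shared by all arrays of a fit, so a standard error can differ from the spread of the groups shown. Genes above log2 4 on at least 3 arrays of the fit were tested, so a gene at background in the other groups can enter through the group where it is high. P-values were adjusted by Benjamini and Hochberg's method across every gene tested, with calls under 0.05. They measure the spread between cultures labelled as biological replicates.

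Named were the 12 largest called rises and falls without overlap of the arrays, up to 3 called members of a list with at least 2 calls, and 5 genes each way per difference. Further members of the lists were named after their values were seen, to describe each list more fully. Members and lists were chosen with earlier results of these data known. Lists are given as counts and medians, with no test of the list. Promoters come from RefSeq, GRCh38.p14, matched by symbol, and a match describes letters, not a bound site. The share of all promoters includes those of genes that were not tested.

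Same-numbered control arrays at 12 and 48 h did not deviate together (r of 0.0267, −0.0276 and 0.0602), so the numbers were not taken as pairs in that comparison. The alternatives changed the filter (none, or log2 6), the value of a gene (averaged probe sets, or without those ending in _x_at or _s_at), the normalization (quantile), the variance model (limma's trend), the arrays in the fit and the use of replicate numbers as a block, and left out single arrays. The procedure was tested on simulated data with independent arrays, which does not cover the deviations that some same-numbered compound and control arrays shared. Figures were drawn with Python 3.11.15 and matplotlib 3.10.9.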

Additional observations from a re-analysis of the deposited data

Results flagged for a closer look

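The values below are flagged because the change over time differed between 2 sets of cultures by a test of the difference itself. Between the Fk and Ra controls and those of CdCl and Di, the time change differed by 3.04 in OLFML2A, 2.87 in OASL, 2.71 in CHI3L1, 2.67 in TIAM1 and 2.66 in DIRC3, and by −2.23 in LOC100190986, −1.92 in DANCR, −1.89 in ZNF667-AS1, −1.86 in LINC00663 and −1.77 in CFAP70. Between the Fk and Ra controls and those of CsA it differed by 3.11 in UCA1, 2.40 in DIRC3, 1.71 in PTGS1, 1.69 in SLC39A11 and 1.56 in EDIL3, and by −2.19 in VCAM1, −1.68 in ZNF365, −1.36 in NUDT11, −1.12 in MAT2A and −1.02 in IL31RA. Between the Ra cultures and their controls it differed by −5.52 in ALDH1L2, −5.50 in ANK2, −2.74 in DIRC3, −2.25 in ENPP2 and −1.71 in ENPEP. DIRC3, ZNF365 and NUDT11 entered the differences between control cultures only through the group where they are high. DIRC3 was named in all 3 differences, which share the Fk and Ra control arrays and are therefore not independent.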

How the results depend on the processing

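None of the 87 genes named for the 48 against 12 h comparison changed direction in any of 16 alternatives, and 35 kept their call in each of them where they were tested. The count of 1740 became 1252 with no filter, 2699 with quantile normalization, 3425 in a fit of all arrays, 3072 with only the 6 arrays and 2884 without the Ra 48 h array of replicate 2, an alternative chosen after seeing the data. It ran from 613 to 2024 when single arrays were left out. The difference from CdCl and Di (102) became 187 in a fit of all arrays, 782 with only its own arrays and 21 to 167 with single arrays left out. That from CsA (13) became 8 at a filter of log2 6, 7 with the mean of probe sets, 8 without the suffixed probe sets, 4 in a fit of all arrays, 0 with only its own arrays and 1 to 90 with single arrays left out. For Fk (0) the count was 1 with no filter and 1 with the mean of probe sets. For Ra (5) it was 20 at a filter of log2 6, 20 with the mean of probe sets, 17 without the suffixed probe sets, 120 with quantile normalization, 12 with limma's trend, 1562 in a fit of all arrays, 8 with only its own arrays and 0 to 735 with single arrays left out. With quantile normalization 40.8% of the Ra calls were higher, against 0% without it. With the replicate number as a block the 5 counts were 2008, 62, 6, 0 and 82. The cause of these changes was not tested. Same-numbered control arrays at 12 and 48 h did not deviate together. Ra and control arrays did in all 3 pairs at 12 h (0.134 to 0.339) but not in all at 48 h. Fk and control arrays did in some pairs, with 0.76 and 0.581 for replicates 1 and 3 at 48 h. The fits without the block treated these arrays as independent, which is a limit of their p-values. With 3 arrays per group, changes of small size may be missed, and values near background depend on the background correction.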
